A study of Mus musculus with 6 samples.

Results

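The genes described here are 46 members of the cell division programme, measured in alveolar macrophages sorted from mouse lung. They were taken by name from the deposited count table, where all 46 had a row among 23282 rows, and the list is one of names, with no measured value in its rule. By role they are 8 cyclins, kinases and the factor E2f1 that act in G1 and at entry into S phase, 12 DNA replication genes and 26 mitosis genes. The study compared 3 libraries from Sdha-KO mice with 3 libraries from wildtype (WT) mice, each group with 1 library in each of batches 1, 2 and 3. The Sdha-KO mice carried a floxed Sdha gene and LysM-Cre, a Cre recombinase expressed from the Lyz2 locus and so active in alveolar macrophages but also in other myeloid cells. Both groups came from the same sort of CD11b-negative cells positive for CD45, CD11c, F4/80 and SiglecF, and the labels do not say whether a library is 1 mouse or a pool, nor the age, sex or Cre status of WT mice.

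D-type cyclins with Cdk4 and Cdk6 phosphorylate the retinoblastoma protein, which frees E2F factors to switch on the genes of DNA replication. Mitosis genes are switched on later in the cycle, mostly through a promoter element called CHR that the DREAM and B-Myb complexes bind, often beside CCAAT boxes bound by NF-Y. Alveolar macrophages are long-lived cells that keep their number in the adult lung largely by dividing locally, driven by GM-CSF, so a share of them is in cycle at any time. Sdha encodes the catalytic subunit of succinate dehydrogenase, which oxidises succinate in the tricarboxylic acid cycle and passes the electrons to the respiratory chain.

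No member of the set passed the test across all genes when all 6 libraries were used, but replication and mitosis transcripts had lower summed levels in Sdha-KO than in WT libraries. In CPM, counts scaled to a common library size with TMM factors, the 12 replication genes summed to 196 ± 40.5 CPM in Sdha-KO libraries and 410 ± 28.8 CPM in WT libraries (SD, n = 3 each). The 26 mitosis genes summed to 935 ± 124 CPM in Sdha-KO libraries and 1455 ± 30.6 CPM in WT libraries (SD, n = 3 each). Without Mcm7 the replication sums of the groups overlapped, and the Sdha-KO sum was 1.11 of the WT sum in batch 1. The mitosis sums overlapped without Hmgb2, Tubb5 and Tuba1b, and also when scaled by library totals alone. Scaled by totals without the ribosomal RNA row Rn45s, the sums of all 26 mitosis genes did not overlap. Sdha-KO library 1 had a count of 0 for 33 of the 46 genes. The 8 G1 genes summed to 738 ± 134 CPM in Sdha-KO libraries and 700 ± 132 CPM in WT libraries (SD, n = 3 each). Within replicates 2 and 3 alone, edgeR called no member. With the batch number as a block it called 3.01% of all genes there. Among these were cyclin D1 (Ccnd1), higher, and Mcm7 and Hmgb2, lower in Sdha-KO libraries. In such bulk samples, fewer dividing cells and less RNA of these genes per cell cannot be told apart.

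Total counts were 8472907, 5400160 and 7269525 in Sdha-KO libraries 1 to 3 and 8239600, 5813531 and 8032959 in WT libraries 1 to 3. The ribosomal RNA row Rn45s made up 20.9%, 43.4% and 48.2% of these in Sdha-KO libraries and 36.3%, 57.6% and 44.7% in WT libraries. A gene with no read could still have had up to 3, or between 0.25 and 0.666 CPM. The batch 1 libraries stood apart: they held counts for 5438 genes (Sdha-KO) and 7893 genes (WT), against 11383 to 13050 genes in the other 4 libraries. Sdha itself had 26.1, 21.0 and 22.8 CPM in Sdha-KO libraries, against 56.0, 65.5 and 72.2 CPM in WT libraries, with no overlap, and how far its 3' reads lie from the deleted part is not given. The Y-linked Ddx3y had 0, 354 and 432 counts in Sdha-KO libraries and 222, 0 and 143 counts in WT libraries, while Xist had 2683, 498 and 822 counts in Sdha-KO libraries and 0, 4608 and 6055 counts in WT libraries. Sdha-KO libraries 2 and 3 thus held more Ddx3y and less Xist than WT libraries 2 and 3, so genotype and the sex of the mice cannot be told apart there. The summed level of 15 alveolar macrophage markers was 7361 to 9133 CPM in Sdha-KO libraries and 8102 to 9467 CPM in WT libraries, with Siglecf and Adgre1, markers that the sort itself used, at 0 in Sdha-KO library 1.

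Promoters of 37 of the 46 genes were found in a RefSeq table for GRCm38.p6, which gives 250 bases before to 50 bases after each start, 41 promoters in all. Ccnd1, Ccnd2, Ccne2, Mcm4, Gins2, Ccna2, Aurkb, Kif20a and Tpx2 had no entry in it. Searched on both strands, a CHR-type match (TTTGAA or TTTAAA) stood in 19 of 23 mitosis promoters (82.6%) and 4 of 12 replication promoters (33.3%), against 27.6% of all 32851 promoters in the table. A CCAAT match stood in 20 mitosis promoters (86.96%) and 11 replication promoters (91.7%), against 37.4% of all promoters. A match to an E2F-type motif, TTT followed by a pair of bases that are each C or G and then CGC, stood in 5 replication promoters (41.7%) and 1 mitosis promoter, against 2.27% of all promoters. Of the 6 promoters of G1 genes, 1 had a CHR-type match, 1 had a CCAAT match and none had an E2F-type match. Ccnd3 had a pair of these, 1 of them wholly inside the annotated gene, and those of E2f1 and Cdk6 also lay wholly inside theirs. The pair of promoters of Mcm7, a replication gene, lay inside its annotated gene as well. Bases before the annotated start of E2f1, Cdk6 and Mcm7 were thus not searched.

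The promoters printed here belong to genes that were below all WT libraries in every Sdha-KO library, and they show the layout that the motif counts summarise. Capitals mark the CHR-type, CCAAT and E2F-type matches on either strand, each promoter runs 5′ to 3′ along the gene's strand, and a match describes letters, not bound factors. The table holds a pair of promoters for Mcm7, and the other, at chr5:138171217-138171516, has 1 CCAAT match and no E2F-type or CHR-type match. In the Mcm7 promoter printed here an E2F-type match and a CCAAT match share a base just after the start, the only such overlap between different motifs in the 41 promoters. Those of Hmgb2, Top2a, Bub1b, Kif23 and Plk1 each hold both a CHR-type and a CCAAT match. The promoter of Tyms, which also lay below all WT libraries, holds none of these letters in its window.
Mcm7 (chr5:138171834-138172133, minus strand): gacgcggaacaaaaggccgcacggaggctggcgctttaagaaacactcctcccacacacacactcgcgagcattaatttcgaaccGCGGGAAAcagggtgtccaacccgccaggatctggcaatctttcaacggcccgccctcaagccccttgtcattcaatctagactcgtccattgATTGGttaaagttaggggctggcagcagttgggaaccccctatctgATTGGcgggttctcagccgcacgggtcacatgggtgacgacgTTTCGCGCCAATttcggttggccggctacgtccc
Hmgb2 (chr8:57511593-57511892, plus strand): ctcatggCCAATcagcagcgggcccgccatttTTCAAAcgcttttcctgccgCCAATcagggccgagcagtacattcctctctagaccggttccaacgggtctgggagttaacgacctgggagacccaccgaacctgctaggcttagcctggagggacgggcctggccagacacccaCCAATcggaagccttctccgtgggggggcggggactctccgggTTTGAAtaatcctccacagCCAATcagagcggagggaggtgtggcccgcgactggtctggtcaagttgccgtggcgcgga
Top2a (chr11:99024140-99024439, minus strand): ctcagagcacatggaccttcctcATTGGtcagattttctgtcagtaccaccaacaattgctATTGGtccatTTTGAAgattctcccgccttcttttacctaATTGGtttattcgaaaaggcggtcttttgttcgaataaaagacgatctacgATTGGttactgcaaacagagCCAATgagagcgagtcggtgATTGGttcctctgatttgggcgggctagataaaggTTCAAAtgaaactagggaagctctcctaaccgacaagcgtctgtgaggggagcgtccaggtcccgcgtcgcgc
Bub1b (chr2:118597961-118598260, plus strand): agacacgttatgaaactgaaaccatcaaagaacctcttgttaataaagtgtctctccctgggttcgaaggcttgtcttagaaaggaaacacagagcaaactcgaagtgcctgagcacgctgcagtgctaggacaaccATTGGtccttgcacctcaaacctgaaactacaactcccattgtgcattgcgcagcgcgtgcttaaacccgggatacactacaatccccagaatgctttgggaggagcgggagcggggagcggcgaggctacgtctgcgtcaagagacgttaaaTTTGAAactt
Kif23 (chr9:61946750-61947049, minus strand): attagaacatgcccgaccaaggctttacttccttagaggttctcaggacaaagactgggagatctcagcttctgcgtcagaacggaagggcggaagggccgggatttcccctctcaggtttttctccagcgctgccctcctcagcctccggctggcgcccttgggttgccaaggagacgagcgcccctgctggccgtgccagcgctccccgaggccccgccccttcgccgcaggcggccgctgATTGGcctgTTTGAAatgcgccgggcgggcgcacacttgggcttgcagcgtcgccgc
Plk1 (chr7:122159185-122159484, plus strand): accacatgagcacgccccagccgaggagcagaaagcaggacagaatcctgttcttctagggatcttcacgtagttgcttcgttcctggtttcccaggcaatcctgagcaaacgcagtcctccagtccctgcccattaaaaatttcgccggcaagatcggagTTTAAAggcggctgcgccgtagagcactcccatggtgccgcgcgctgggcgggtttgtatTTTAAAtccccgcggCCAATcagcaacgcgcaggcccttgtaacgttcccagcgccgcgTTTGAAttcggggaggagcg

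Detection of the members followed the batches. Sdha-KO library 1 had counts for 13 of the 46 genes, Sdha-KO library 2 for 39 and Sdha-KO library 3 for 46, while WT library 1 had counts for 34 and WT libraries 2 and 3 for 46 each. Within batch 1, 33 members were at 0 in the Sdha-KO library and 12 in the WT library, 9 of them in both. Well-expressed members were among those missing: of 14 members with at least 100 counts in each of the 4 libraries of batches 2 and 3, 7 (50%) were at 0 in Sdha-KO library 1 and 2 (14.3%) in WT library 1. Among all 3447 rows with that many counts, 17.8% were at 0 in Sdha-KO library 1 and 3.95% in WT library 1. In Sdha-KO library 2 the members at 0 were Ccne1, Uhrf1, Aurka, Aurkb, Plk1, Cdc20 and Kif20a.

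**Figure D1:**
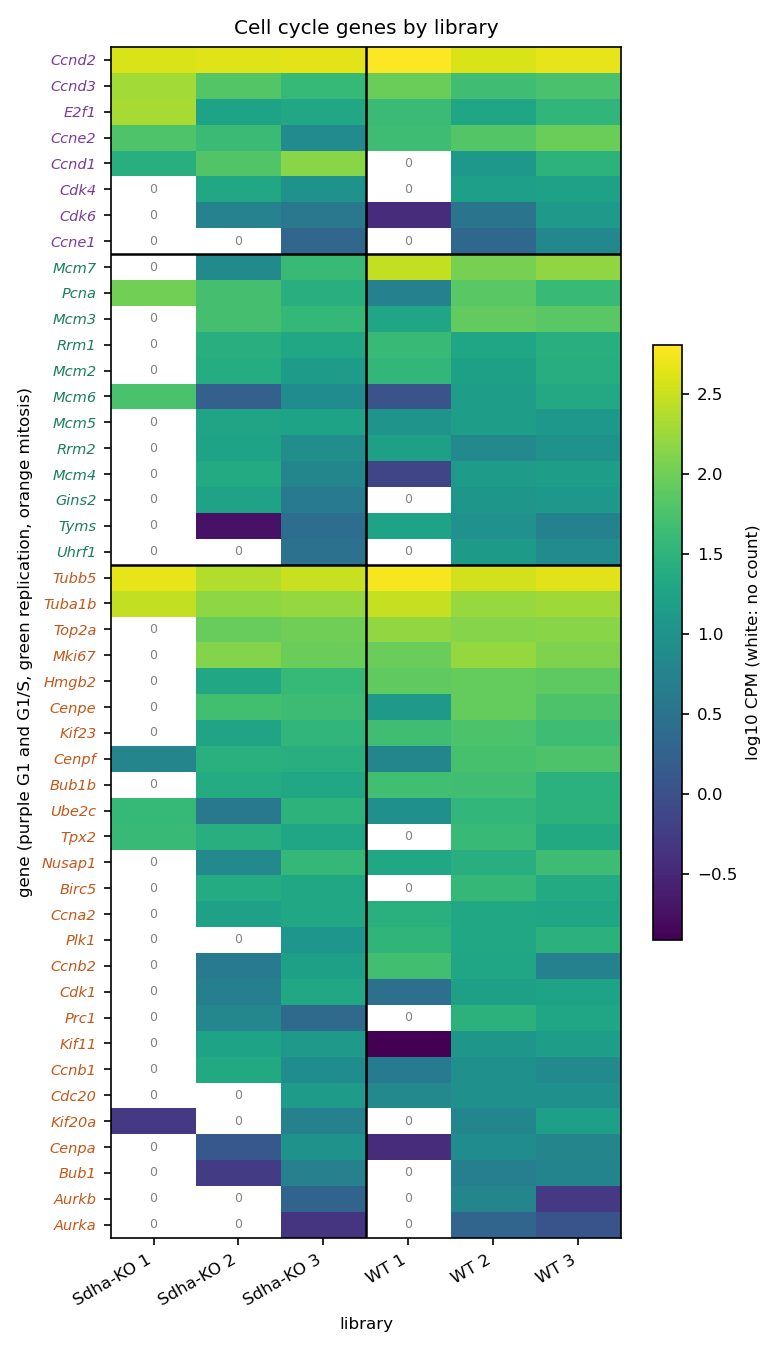
Level of each of the 46 genes in each library, as log10 of CPM by colour, with white cells marking a count of 0 and black lines separating the roles and the groups. Sdha-KO library 1 is white for 33 genes and WT library 1 for 12, while Sdha-KO library 3 and WT libraries 2 and 3 have counts for all 46.

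With all 6 libraries, edgeR's quasi-likelihood test called 5 of 9963 genes at an adjusted p threshold of 0.05, 0.0502% of those tested, and none of the 44 members tested was among them. No member reached an unadjusted p of 0.05 either, and the smallest adjusted p of a member was 1.00 (edgeR, Benjamini-Hochberg over all genes). With the batch number as a block, 0 genes were called (0%), 296 genes had an unadjusted p under 0.05 with none of them a member, and the smallest adjusted p of a member was 0.966 (edgeR). DESeq2 and limma-voom without the block also called 0 members, while DESeq2 with the block called Plk1. edgeR's biological coefficient of variation was 1.40 over the 6 libraries and 0.677 over replicates 2 and 3. With the main filter, Aurka was too low to be tested in the edgeR fits of all 6 libraries and of replicates 2 and 3. Aurkb was too low in those of all 6 libraries.

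With replicates 2 and 3 alone, edgeR called 27 of 10757 genes (0.251%) and none of the 45 members tested, of which 7 had an unadjusted p under 0.05 against 10.2% of all genes. These 7 were Ccnd1, Ccne2, Mcm3, Mcm7, Cenpf, Hmgb2 and Prc1, and their smallest adjusted p was 0.25. DESeq2 called Ccnd1 and Mcm7 on the same 4 libraries (1.97% of all genes), and limma-voom called those and Ccne2 (2.07%). With the batch number as a block, edgeR called 324 genes (3.01%), 178 higher (1.65%) and 146 lower (1.36%) in Sdha-KO libraries. Among the members 3 passed, Ccnd1 higher and Mcm7 and Hmgb2 lower. That fit leaves few degrees of freedom per gene, so its SEs and p-values rest largely on spread pooled across genes. With 1 of the 4 libraries left out and no block, 1 member was called without WT library 2 (0.854% of all tested genes), 2 without WT library 3 (1.03%), 4 without Sdha-KO library 2 (1.53%) and 11 without Sdha-KO library 3 (15.6%). The number of members called thus moved with the share of all genes called. Mcm7 was called in all 4 of these, Ccnd1 without Sdha-KO library 2 and without WT library 3, and Hmgb2 without Sdha-KO library 3.

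**Figure D2:**
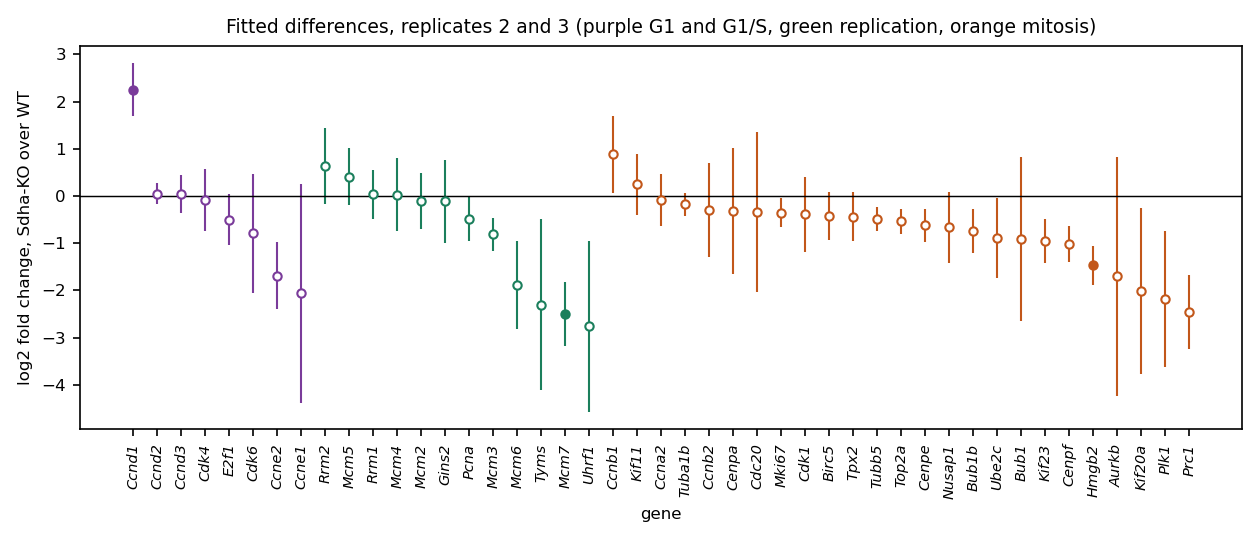
Fitted log2 fold change, Sdha-KO over WT, of the 45 tested members in replicates 2 and 3 without the block, with bars of 1 standard error and genes ordered by role. Filled points mark Ccnd1, Mcm7 and Hmgb2, which passed the adjusted p threshold with the block, and 23 of 25 mitosis genes lie below 0.

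Among the G1 genes, cyclin D1 (Ccnd1, chr7:144929931-144939925 in mm10) was the member that stood out. Ccnd1, which couples growth signals to Cdk4 and Cdk6, had 27.5, 63.8 and 138 CPM in Sdha-KO libraries 1 to 3, against 0, 11.8 and 30.7 CPM in WT libraries 1 to 3. Its Sdha-KO value was higher than its WT value within each batch, in batch 1 against a count of 0. The groups overlapped, since Sdha-KO library 1 lay below WT library 3. It averaged 76.5 ± 56.5 CPM in Sdha-KO libraries and 14.1 ± 15.5 CPM in WT libraries (SD, n = 3 each). The log2 fold change was 2.43 (SE 1.53, edgeR adjusted p = 1.00) with all libraries and 2.25 (SE 0.57, edgeR adjusted p = 0.25) in replicates 2 and 3. With the block in replicates 2 and 3 it rose by 2.31 (SE 0.37, edgeR adjusted p = 0.000667). An exon of Ccnd1 overlaps LTO1 on the other strand. The LTO1 row held 0, 25 and 28 counts in Sdha-KO libraries and 0, 45 and 4 counts in WT libraries. The Ccnd1 row held 329, 343 and 928 counts in Sdha-KO libraries and 0, 53 and 241 counts in WT libraries. In WT library 2 the rows were close, and sharing of reads was not tested.

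The other D-type cyclins did not share that pattern of values. Ccnd2 had 398, 429 and 458 CPM in Sdha-KO libraries, against 643, 398 and 465 CPM in WT libraries. The groups overlapped, and the log2 fold change in replicates 2 and 3 was 0.05 (SE 0.21, edgeR adjusted p = 0.979). Ccnd3 had 199, 66.0 and 38.0 CPM in Sdha-KO libraries, against 94.4, 46.6 and 54.6 CPM in WT libraries, again with overlap. Its exons overlap those of Bysl, a ribosome assembly gene on the other strand, which had 294, 83.1 and 43.8 CPM in Sdha-KO libraries and 130, 54.4 and 60.5 CPM in WT libraries. The Ccnd3 and Bysl rows were high and low in the same libraries, and reads of the pair cannot be told apart without strand.

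Cdk4, a kinase partner of the D-type cyclins, had 0, 19.9 and 9.84 CPM in Sdha-KO libraries, against 0, 15.3 and 16.3 CPM in WT libraries. Its other partner kinase, Cdk6, had 0, 29 and 25 counts in Sdha-KO libraries and 3, 15 and 99 counts in WT libraries. Both kinases overlapped between the groups. E2f1, the transcription factor released from the retinoblastoma protein, had 206, 17.7 and 19.8 CPM in Sdha-KO libraries, against 42.0, 19.5 and 34.1 CPM in WT libraries, so its highest value was that of Sdha-KO library 1. Ccne2, an E-type cyclin that activates Cdk2 at S phase entry, had 61.1, 41.7 and 7.60 CPM in Sdha-KO libraries, against 44.9, 65.7 and 94.0 CPM in WT libraries. In replicates 2 and 3 the Ccne2 groups did not overlap, with a log2 fold change of -1.69 (SE 0.71, edgeR adjusted p = 0.472). Ccne1, the other E-type cyclin, had 0, 0 and 14 counts in Sdha-KO libraries and 0, 10 and 53 counts in WT libraries.

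Over the 12 replication genes, the level summed to 160, 240 and 187 CPM in Sdha-KO libraries 1 to 3, against 441.2, 384 and 406 CPM in WT libraries 1 to 3. The groups did not overlap, and the Sdha-KO sum was 0.363, 0.624 and 0.462 of the WT sum in batches 1, 2 and 3. The difference rested on Mcm7: without it, the other 11 genes summed to 160, 232 and 148 CPM in Sdha-KO libraries, against 145, 273 and 248.8 CPM in WT libraries. Those groups overlapped, and the Sdha-KO sum was above the WT sum in batch 1, at 1.11 of it, and below it in batches 2 and 3, at 0.85 and 0.594 of it.

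Mcm7 (chr5:138164583-138172422 in mm10) encodes a subunit of the MCM helicase, which unwinds DNA at replication forks. It had 0, 7.44 and 39.5 CPM in Sdha-KO libraries, against 296, 111 and 157 CPM in WT libraries. Every Sdha-KO library lay below every WT library, with averages of 15.6 ± 21.0 CPM in Sdha-KO libraries and 188 ± 96.6 CPM in WT libraries (SD, n = 3 each). The log2 fold change was -3.59 (SE 1.78, edgeR adjusted p = 1.00) with all libraries and -2.49 (SE 0.68, edgeR adjusted p = 0.271) in replicates 2 and 3. With the block in replicates 2 and 3 it fell by 2.86 (SE 0.47, edgeR adjusted p = 0.00974). Exons of Mcm7 overlap Ap4m1 and Cops6 on the other strand. The Ap4m1 row held 0, 0 and 57 counts in Sdha-KO libraries and 542, 49 and 33 counts in WT libraries, and the Cops6 row 951, 184 and 127 counts in Sdha-KO libraries and 167, 120 and 191 counts in WT libraries. Neither partner separated the groups. Like Mcm7, Ap4m1 was lower in Sdha-KO than in WT in batches 1 and 2, but it was higher in batch 3. The Mcm7 row held 0, 40 and 265 counts in Sdha-KO libraries and 2417, 499 and 1232 counts in WT libraries. Without strand, reads shared with a partner cannot be told apart.

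**Figure D3:**
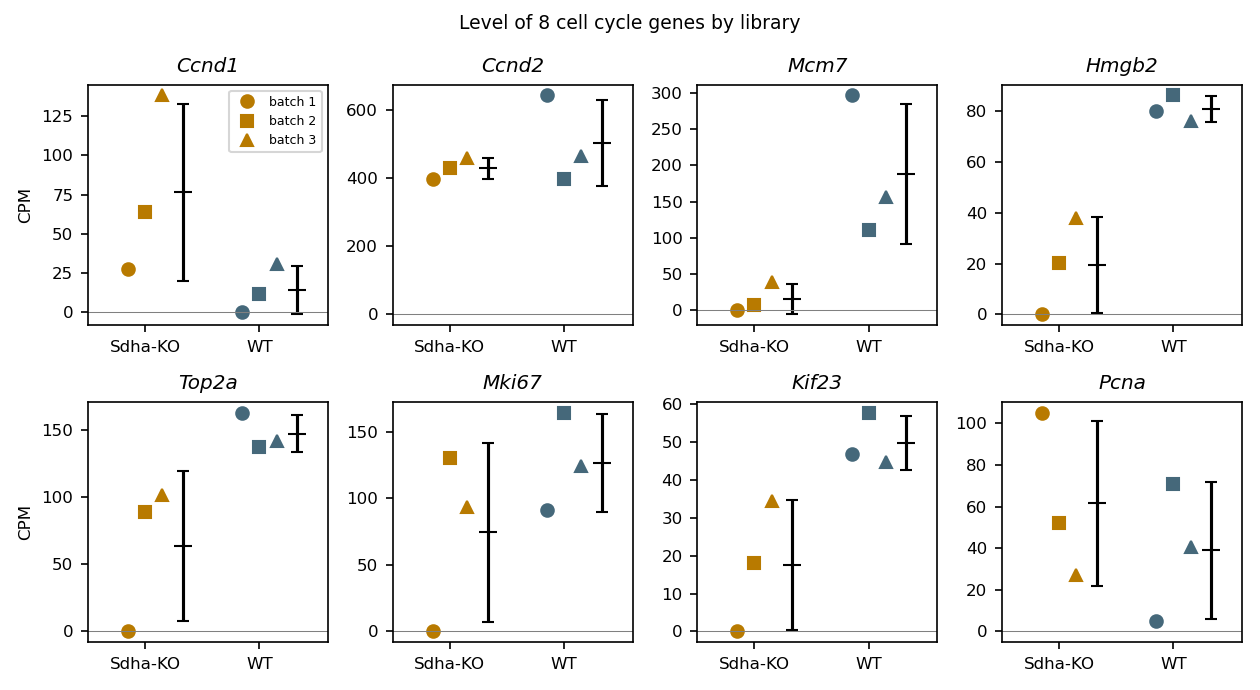
CPM of Ccnd1, Ccnd2, Mcm7, Hmgb2, Top2a, Mki67, Kif23 and Pcna in each library, Sdha-KO left of WT, with marker shape giving the batch and the bar beside the points the mean ± SD (n = 3). Mcm7, Hmgb2, Top2a and Kif23 separate the groups with Sdha-KO library 1 at 0, and the other 4 genes overlap.

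The other helicase subunits were not lower together. Mcm2 had 0, 24.4 and 13.4 CPM in Sdha-KO libraries, against 35.0, 16.0 and 25.1 CPM in WT libraries. Mcm3 had 0, 51.1 and 36.8 CPM in Sdha-KO libraries, against 19.0, 82.8 and 72.7 CPM in WT libraries. Mcm3 was lower in Sdha-KO than in WT within each batch, in batch 1 through a count of 0. Its log2 fold change was -0.81 (SE 0.35, edgeR adjusted p = 0.486) in replicates 2 and 3. Mcm2 was higher in batch 2 and lower in batches 1 and 3. Mcm5 had 0, 18.0 and 17.6 CPM in Sdha-KO libraries, against 10.4, 15.1 and 11.97 CPM in WT libraries, the only replication gene above WT in both batches 2 and 3. Mcm6 had 55.1, 1.67 and 7.90 CPM in Sdha-KO libraries, against 1.10, 14.9 and 21.3 CPM in WT libraries, with the order of the groups turned round between batch 1 and the others. Mcm4 had 0, 123 and 42 counts in Sdha-KO libraries and 6, 61 and 119 counts in WT libraries.

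Pcna, the sliding clamp of the replication polymerases, had 105, 52.3 and 27.1 CPM in Sdha-KO libraries, against 5.27, 71.0 and 40.5 CPM in WT libraries. It was above WT in batch 1 and below it in batches 2 and 3. Rrm1, the large subunit of ribonucleotide reductase, had 0, 27.5 and 20.3 CPM in Sdha-KO libraries, against 40.1, 19.3 and 27.6 CPM in WT libraries. Its small subunit Rrm2 had 0, 94 and 57 counts in Sdha-KO libraries and 129, 32 and 77 counts in WT libraries. Both subunits were higher in Sdha-KO than in WT in batch 2 and lower in batches 1 and 3. Tyms, which makes thymidylate, had 0, 1 and 18 counts in Sdha-KO libraries and 143, 42 and 41 counts in WT libraries. It was below WT in every batch, in batch 1 through a count of 0. Gins2, part of the active replicative helicase, had 0, 91 and 29 counts in Sdha-KO libraries and 0, 51 and 93 counts in WT libraries, and Uhrf1, which brings Dnmt1 to newly made DNA, had 0, 0 and 20 counts in Sdha-KO libraries and 0, 59 and 60 counts in WT libraries.

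Over the 26 mitosis genes, the level summed to 846, 882 and 1076 CPM in Sdha-KO libraries 1 to 3, against 1485, 1454 and 1424 CPM in WT libraries 1 to 3. The groups did not overlap, and the Sdha-KO sum was 0.57, 0.607 and 0.756 of the WT sum in batches 1, 2 and 3. Scaled by library totals alone the groups overlapped, at 1197, 878 and 993 CPM in Sdha-KO libraries, against 1471, 1127 and 1393 CPM in WT libraries. Scaled by totals without the ribosomal RNA row Rn45s, the groups did not overlap. The sums were then 1513, 1552 and 1919 CPM in Sdha-KO libraries, against 2310, 2660 and 2518 CPM in WT libraries. Much of the sum came from Tubb5 and Tuba1b, tubulins that non-dividing cells also use. Without these and Hmgb2, the other 23 genes summed to 83.2, 474 and 554 CPM in Sdha-KO libraries, against 522, 843 and 727 CPM in WT libraries. The Sdha-KO sum was then 0.159, 0.562 and 0.762 of the WT sum in batches 1, 2 and 3, with overlap because WT library 1 lay below Sdha-KO library 3.

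**Figure D4:**
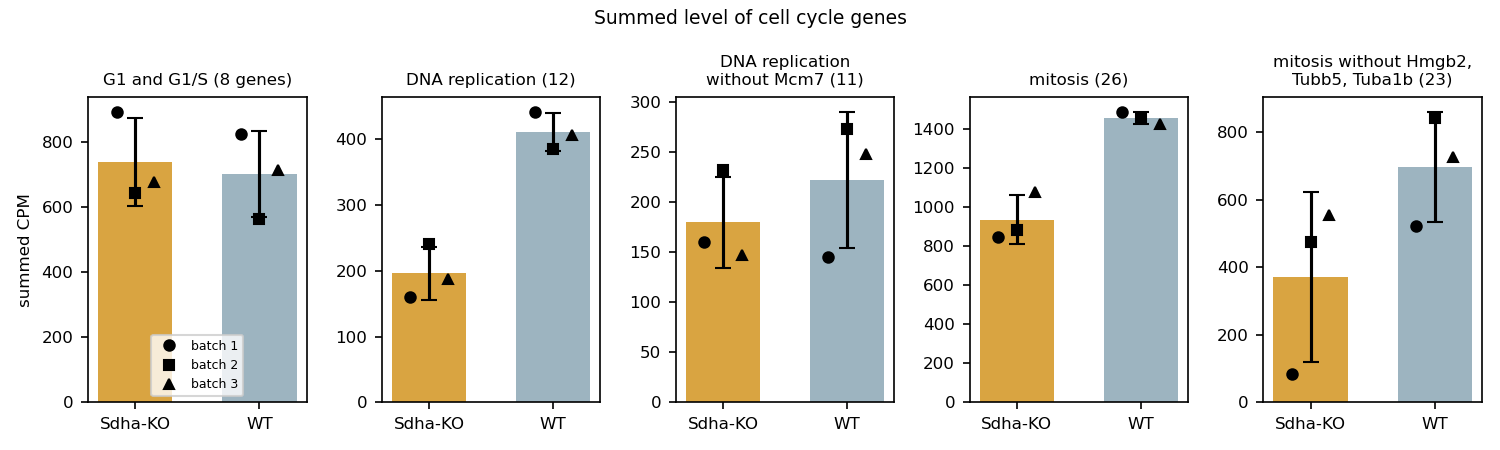
Summed CPM of the G1, replication and mitosis genes per library, with bars for the mean, error bars for the SD (n = 3), Sdha-KO left of WT and marker shape for the batch. The replication and mitosis sums separate the groups, and they no longer do without Mcm7 and without Hmgb2, Tubb5 and Tuba1b.

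The chromosome proteins include the commonest proliferation markers. Mki67 (chr7:135689784-135716361), whose protein coats mitotic chromosomes, had 0, 131 and 93.3 CPM in Sdha-KO libraries, against 91.4, 164 and 124 CPM in WT libraries. It was lower in Sdha-KO within each batch, in batch 1 through a count of 0 in a library that lacked many transcripts. The groups overlapped, and the log2 fold change in replicates 2 and 3 was -0.35 (SE 0.30, edgeR adjusted p = 0.803). Top2a (chr11:98992943-99024189), the topoisomerase that untangles sister DNA, had 0, 89.1 and 102 CPM in Sdha-KO libraries, against 163, 137 and 142 CPM in WT libraries. The Top2a groups did not overlap, at 63.6 ± 55.5 CPM in Sdha-KO libraries and 147 ± 13.7 CPM in WT libraries (SD, n = 3 each), but the log2 fold change in replicates 2 and 3 was -0.53 (SE 0.26, edgeR adjusted p = 0.552).

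Hmgb2 (chr8:57511907-57515999), a chromatin protein abundant in dividing cells, had 0, 20.1 and 38.2 CPM in Sdha-KO libraries, against 80.0, 86.3 and 76.3 CPM in WT libraries. The groups did not overlap, with averages of 19.4 ± 19.1 CPM in Sdha-KO libraries and 80.9 ± 5.08 CPM in WT libraries (SD, n = 3 each), whose values lay close together. The log2 fold change was -2.06 (SE 1.52, edgeR adjusted p = 1.00) with all libraries and -1.47 (SE 0.41, edgeR adjusted p = 0.28) in replicates 2 and 3. With the block in replicates 2 and 3 it fell by 1.53 (SE 0.40, edgeR adjusted p = 0.0424). Hmgb2 has near-identical copies in the genome, as the tubulins do, so these counts are uncertain where the counting could split reads.

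Of the cyclins and kinases that start mitosis, none passed edgeR's test with all 6 libraries or with replicates 2 and 3, with or without the block. Ccnb2, a partner of Cdk1, had 0, 4.09 and 15.9 CPM in Sdha-KO libraries, against 47.9, 19.5 and 5.35 CPM in WT libraries. Ccna2, the cyclin of S and G2, had 0, 16.6 and 20.0 CPM in Sdha-KO libraries, against 28.4, 20.0 and 18.8 CPM in WT libraries. Cdk1, the kinase itself, had 0, 5.02 and 20.3 CPM in Sdha-KO libraries, against 2.94, 16.0 and 17.4 CPM in WT libraries. All 3 were lower in Sdha-KO than in WT in batches 1 and 2 and higher in batch 3. Plk1, a kinase that acts from mitotic entry to cytokinesis, had 0, 0 and 11.03 CPM in Sdha-KO libraries, against 33.2, 20.6 and 30.05 CPM in WT libraries, below WT in every library. Ccnb1 had 0, 120 and 53 counts in Sdha-KO libraries and 35, 41 and 58 counts in WT libraries, the only mitosis gene higher in Sdha-KO CPM in both batches 2 and 3.

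Of the spindle checkpoint and kinetochore genes, Bub1b, Cenpe, Cenpf and Birc5 had lower values in Sdha-KO than in WT in both batches 2 and 3, none past the test. Bub1b, which holds back anaphase until chromosomes are attached, had 0, 24.2 and 20.9 CPM in Sdha-KO libraries, against 48.3, 46.4 and 29.2 CPM in WT libraries. The Bub1b groups did not overlap, and the log2 fold change in replicates 2 and 3 was -0.73 (SE 0.47, edgeR adjusted p = 0.693). Cenpe, a kinetochore motor, had 0, 48.2 and 43.5 CPM in Sdha-KO libraries, against 12.7, 83.7 and 58.4 CPM in WT libraries. Cenpf, a large kinetochore protein, had 6.01, 28.5 and 26.4 CPM in Sdha-KO libraries, against 6.25, 53.3 and 58.7 CPM in WT libraries. Both overlapped between groups only through the low WT library 1, and the log2 fold change of Cenpf in replicates 2 and 3 was -1.02 (SE 0.38, edgeR adjusted p = 0.436). Birc5, a subunit of the chromosomal passenger complex, had 0, 23.8 and 20.4 CPM in Sdha-KO libraries, against 0, 37.1 and 22.7 CPM in WT libraries.

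Spindle and cytokinesis genes gave a mixed picture by library. Kif23 (chr9:61915905-61946774), a motor of the central spindle, had 0, 18.0 and 34.4 CPM in Sdha-KO libraries, against 46.7, 57.7 and 44.6 CPM in WT libraries. The Kif23 groups did not overlap, with a log2 fold change of -0.95 (SE 0.46, edgeR adjusted p = 0.55) in replicates 2 and 3. Tpx2, which activates aurora A on the spindle, had 39.1, 26.6 and 18.6 CPM in Sdha-KO libraries, against 0, 39.5 and 22.2 CPM in WT libraries. Nusap1, a microtubule bundler, had 0, 6.88 and 37.4 CPM in Sdha-KO libraries, against 20.2, 26.2 and 44.8 CPM in WT libraries. Tpx2 was higher in Sdha-KO in batch 1 and lower in batches 2 and 3. Nusap1 was lower in each batch, in batch 1 through a count of 0. Ube2c, which works with the anaphase-promoting complex, had 37.6, 3.91 and 30.9 CPM in Sdha-KO libraries, against 9.07, 35.1 and 30.4 CPM in WT libraries, with overlap. Tubb5, a beta tubulin, had 473, 240 and 316 CPM in Sdha-KO libraries, against 581, 354 and 432 CPM in WT libraries. Tuba1b, an alpha tubulin, had 290, 149 and 167 CPM in Sdha-KO libraries, against 303, 172 and 189 CPM in WT libraries. Both tubulins were lower in Sdha-KO within each batch while their groups overlapped through batch 1.

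The 9 other mitosis genes averaged under 10 CPM. Prc1, which bundles the central spindle, had 0, 35 and 16 counts in Sdha-KO libraries and 0, 134 and 152 counts in WT libraries. Its groups did not overlap in replicates 2 and 3, where the log2 fold change was -2.45 (SE 0.78) with an edgeR adjusted p of 0.36, or 0.145 with the block. The checkpoint kinase Bub1 had 0, 3 and 34 counts in Sdha-KO libraries and 0, 22 and 46 counts in WT libraries. Cdc20, the activator of the anaphase-promoting complex, had 0, 0 and 94 counts in Sdha-KO libraries and 57, 41 and 70 counts in WT libraries. Both were lower in Sdha-KO library 2 than in WT library 2, and Cdc20 was higher in Sdha-KO library 3 than in WT library 3. Kif20a, a cytokinesis motor, had 6, 0 and 35 counts in Sdha-KO libraries and 0, 28 and 120 counts in WT libraries. Kif11, the motor that pushes spindle poles apart, had 0, 95 and 85 counts in Sdha-KO libraries and 1, 51 and 113 counts in WT libraries. The centromeric histone Cenpa and the aurora kinases Aurka and Aurkb had at most 66 counts in any library, with a count of 0 in Sdha-KO library 1 for all 3.

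Set beside all genes, the count of members below WT in every library was 7 of 44 tested, namely Mcm7, Tyms, Top2a, Bub1b, Plk1, Kif23 and Hmgb2, while 9.27% of all 9963 tested genes were. All 7 had a count of 0 in Sdha-KO library 1. None was above WT in every library, against 5.04% of all tested genes. In replicates 2 and 3, 18 of 45 tested members lay below both WT libraries, against 23.8% of 10757 tested genes, and 2, Ccnd1 and Mcm5, lay above both, against 20.1%. Within both batches 2 and 3, 25 of 45 tested members were lower in the Sdha-KO library than in the WT library, against 32.3% of all tested genes, and 3, Ccnd1, Mcm5 and Ccnb1, were higher, against 27.4%. By role, over all 46 genes, 17 of 26 mitosis genes, 6 of 12 replication genes and 3 of 8 G1 genes were lower in both batches. Over the 46, the number lower in both batches was 26 with TMM factors and 24 with library totals alone.

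**Figure D5:**
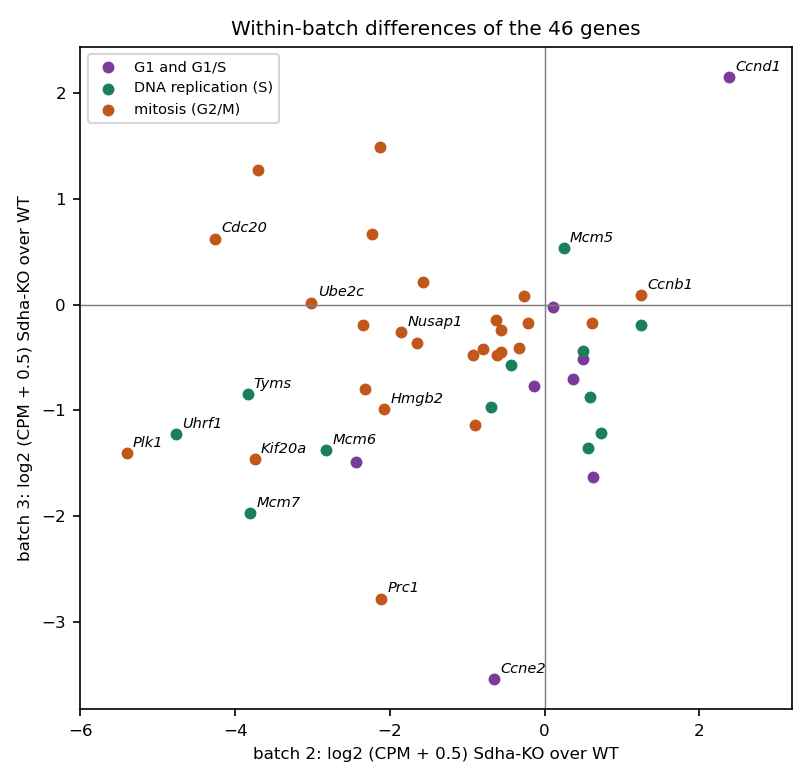
Within-batch difference of each of the 46 genes, log2 of (CPM + 0.5) in Sdha-KO over WT, in batch 2 across and batch 3 up, coloured by role. The lower left quadrant, lower in Sdha-KO in both batches, holds 26 genes, and Ccnd1 stands alone at the upper right with Mcm5 and Ccnb1 nearer the centre.

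The median log2 fold change in replicates 2 and 3 was -0.53 for mitosis genes, -0.30 for replication genes and -0.29 for G1 genes, beside -0.02 for all tested genes. With all libraries it was -0.86 for mitosis genes, -0.60 for replication genes and -0.16 for G1 genes, beside -0.13 for all tested genes. The order of the roles was not stable: with all libraries the replication median lay below the mitosis median under limma-voom (-2.83 for replication and -2.14 for mitosis genes), limma-voom with the block, the stricter filter and without Sdha-KO library 2. Over replicates 2 and 3 the replication median was the lowest without Sdha-KO library 2 (-1.14, with -0.50 for mitosis genes) and the G1 median without WT library 2 (-0.50, with -0.38 for mitosis genes). The sign of the G1 median turned as well, to 0.05 in replicates 2 and 3 without WT library 3. Of the tested mitosis genes 23 of 25 were negative in replicates 2 and 3, where 49.3% of all genes were positive, and 21 of 24 with all libraries, where 45.0% of all genes were positive. Scaling by library totals alone moved the median of all genes to 0.10 in replicates 2 and 3 and to 0.05 with all libraries.

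Related genes that are not among the 46 were counted in the same way. Of 42 other replication genes, 32 of 41 tested had a negative log2 fold change in replicates 2 and 3, with a median of -0.53, while 49.3% of all tested genes were positive. With the block 1 of the 41 passed, no larger a share than the 3.01% of all genes. That gene was Lig1, which joins Okazaki fragments, with 158, 43.5 and 91.8 CPM in Sdha-KO libraries, against 343, 154 and 178 CPM in WT libraries (edgeR adjusted p = 0.00781 with the block and 0.314 without it). The groups overlapped, since Sdha-KO library 1 lay above WT library 2, while within each batch the Sdha-KO value was the lower. Of 55 other mitosis genes in the table, 42 of 49 tested were negative in replicates 2 and 3, with a median of -0.87, and none passed in any of the 4 edgeR fits. The most abundant of them was Smc4, a condensin subunit, with 96.9, 311 and 158 CPM in Sdha-KO libraries and 111, 269 and 244 CPM in WT libraries.

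Of 32 cell cycle inhibitors and transcriptional regulators, 13 of 30 tested had a positive and 17 a negative log2 fold change in replicates 2 and 3, with a median of -0.27. Cdkn1a, which encodes the inhibitor p21, had 816, 626 and 575 CPM in Sdha-KO libraries, against 256, 224 and 262 CPM in WT libraries. Its groups did not overlap, at 673 ± 127 CPM in Sdha-KO libraries and 247 ± 20.6 CPM in WT libraries (SD, n = 3 each). The log2 fold change was 1.44 (SE 0.30, edgeR adjusted p = 0.285) with all libraries and 1.32 (SE 0.22, edgeR adjusted p = 0.0782) in replicates 2 and 3, and it rose with the block there (edgeR adjusted p = 0.000283). Of 16 regulators of alveolar macrophage growth, 9 of 15 tested were positive and 6 negative. With the block, Bhlhe41, a transcription factor of alveolar macrophage identity and self-renewal, rose to 251 and 196 CPM in Sdha-KO libraries 2 and 3, against 130 and 104 CPM in WT libraries 2 and 3 (edgeR adjusted p = 0.0286), and Tgfbr1, a TGF-beta receptor, fell to 45.7 and 28.3 CPM in Sdha-KO libraries 2 and 3, against 132 and 98.5 CPM in WT libraries 2 and 3 (edgeR adjusted p = 0.00406). Without the block neither passed, at edgeR adjusted p = 0.288 for Bhlhe41 and 0.194 for Tgfbr1.

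Markers of other cells moved with the groups, and their part in the results was not tested. The summed level of 10 dendritic cell markers was 156, 234 and 599.5 CPM in Sdha-KO libraries, against 30.1, 33.5 and 78.8 CPM in WT libraries. Of these, 8 of 8 tested were positive in replicates 2 and 3, with Ccr7 and Ccl17 called only with the block, while the defining Flt3 and Zbtb46 were at 0 in Sdha-KO libraries 1 and 2 and in WT libraries 1 and 2. The summed level of 9 monocyte and interstitial macrophage markers was 113, 314 and 260 CPM in Sdha-KO libraries, against 42.9, 79.4 and 105 CPM in WT libraries, with all 8 tested positive, C1qb called only with the block and Ly6c2 at 0 in all but WT library 3. The summed level of 13 lymphocyte markers was 225, 85.4 and 176 CPM in Sdha-KO libraries, against 524, 283 and 406 CPM in WT libraries. Cd2 made up 78.2% to 87.4% of it in Sdha-KO libraries and 90.7% to 100% in WT libraries. It had 197, 66.8 and 141 CPM in Sdha-KO libraries and 524, 258 and 368 CPM in WT libraries and was called lower with the block (edgeR adjusted p = 0.000223) but not without it (edgeR adjusted p = 0.248), while Cd8a and Ncr1 were at 0 in every library. Summed markers of neutrophils and eosinophils (75.1 to 124 CPM in Sdha-KO and 54.4 to 91.8 CPM in WT libraries), of epithelium, endothelium and fibroblasts (118 to 751 CPM in Sdha-KO and 247 to 392 CPM in WT libraries) and of erythroid cells (87 to 386 CPM in Sdha-KO and 161 to 249.04 CPM in WT libraries) overlapped between the groups. Among 15 alveolar macrophage markers, edgeR with the block in replicates 2 and 3 called Fabp4 and Car4 higher and Siglecf, Fabp1, Ear2, Krt79, Mrc1 and Cidec lower in Sdha-KO libraries, and Ear2 also passed without the block (edgeR adjusted p = 0.0155).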

How the data were processed

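Libraries were made from TRIzol RNA with a QuantSeq 3' mRNA kit, per the labels' protocols, which reads near transcript 3' ends, so counts do not scale with transcript length. The authors deposited a table of unnormalized read counts, with genes as rows and libraries as columns. Bowtie2, bedtools and the mm10 genome are named in the submitters' processing notes. The sources used here give no versions, annotation or strand setting, so members whose exons overlap another annotated gene (among them Ccnd1, Ccnd2, Ccnd3, Cdk4, Cdk6, Ccne2, Mcm7, Gins2, Top2a, Ccna2, Plk1, Cdc20, Kif20a, Ube2c, Tuba1b, Nusap1 and Prc1) have uncertain counts. No molecular identifiers are mentioned, so the floor of 3 counts covers counting error only.

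Of 23282 rows, 7901 were 0 in all libraries, and 44 that repeat a symbol were kept. Genotypes were compared with edgeR 4.0.16 in R 4.3.3 (filterByExpr at its minimum of 10 counts, TMM scaling, quasi-likelihood F-test in robust mode), over all genes, with Benjamini-Hochberg adjustment and a threshold of 0.05. CPM used the TMM factors of the 6-library fit, and SEs of log2 fold changes were taken from the F statistics (|log2 fold change| over the root of F). The procedure without the block was tested on simulated data with less spread than these libraries and no batch differences. That check does not cover the block fits or the missing transcripts of batch 1. Where libraries of a group do not come from separate mice, p-values reflect technical spread in place of the spread between mice. Alternatives used DESeq2 1.42.0, limma 3.58.1 and the other settings given in the closing section.

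In the labels a replicate's number is also its batch, which pairs the samples across genotypes. Deviations from group means correlated at 0.155, 0.117 and 0.126 within batches 1 to 3, and at -0.152 to 0.111 between libraries of different batches.

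The members and lists were chosen with earlier results of these data known. Values in every library are given for members past the threshold in any of the 4 edgeR fits and for the 30 members with a mean of at least 10 CPM. The 16 others are given as counts or ranges. From other lists, genes past the threshold or at most the 4 most abundant were named. Gene coordinates are from GENCODE M21, and promoters from RefSeq (GRCm38.p6).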

Additional observations from a re-analysis of the deposited data

How the results depend on the processing

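Under the alternatives run, log2 fold changes of Ccnd1, Mcm7 and Hmgb2 kept their sign in both sets of libraries. In replicates 2 and 3, Ccnd1 passed the threshold under 8 of 15 alternatives, Mcm7 under 10 and Hmgb2 under 4. The number of members called there (0 without the block) was 3 with the replicate block, 4 with no filter, 2 with DESeq2, 3 with limma-voom, 2 with DESeq2 and the block, 4 with limma-voom and the block, and 1 to 11 leaving out 1 library. With all libraries it was 1 with DESeq2 and the block (Plk1), and otherwise 0. In edgeR the block changed the call of no member other than Ccnd1, Mcm7 and Hmgb2.

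Genes called with all libraries (5) came to 0 with the replicate block, 9 with library totals, 48 with no filter, 0 with a stricter filter, 29 with DESeq2, 20 with limma-voom, 150 with DESeq2 and the block, 27 without both batch 1 libraries, and 0 (without WT library 1) to 13 (without WT library 3) leaving out 1 library. In replicates 2 and 3 (27) they came to 324 with the replicate block, 48 with library totals, 359 with no filter, 44 with a stricter filter, 300 with DESeq2, 223 with limma-voom, 317 with DESeq2 and the block, 462 with limma-voom and the block, and 103 (without WT library 2) to 1812 (without Sdha-KO library 3) leaving out 1 library. A lone library was assumed to vary like the others. The causes of these differences were not tested.

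The median log2 fold change of mitosis genes stayed negative under every alternative. With all libraries (-0.86) it was -1.88 with the replicate block, -2.14 with limma-voom, -2.01 with DESeq2 and the block, -1.98 with limma-voom and the block, and -1.75 to -0.48 leaving out 1 library. In replicates 2 and 3 (-0.53) it was -1.52 to -0.38 leaving out 1 library, lowest without Sdha-KO library 3. The replication median with all libraries (-0.60) was -1.51 with the replicate block, -2.83 with limma-voom, -2.88 with limma-voom and the block, and -1.63 to -0.34 leaving out 1 library. Its value in replicates 2 and 3 (-0.30) ran from -1.14 (without Sdha-KO library 2) to 0.045 (without Sdha-KO library 3). The G1 median with all libraries (-0.16) was 0.04 with library totals, 0.63 with a stricter filter, where 5 G1 genes were tested, and -0.60 to 0.44 leaving out 1 library. For replicates 2 and 3 (-0.29) it was -0.56 to 0.05 leaving out 1 library, positive without WT library 3. Depth limits the 16 members under 10 CPM, many with 0 counts in batch 1. The block fits by DESeq2 and by limma-voom and the fit without batch 1 were added after seeing the data.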
